A study of Mus musculus with 3 samples.

Results

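Cluster 5 of the tumour type 1 conventional dendritic cells (cDC1s) is the cluster that carries Creld2, Hspa5 and Pdia6 as its markers, 3 genes of the response to stress in the endoplasmic reticulum (ER). Its members were taken as every cell that the authors' table of 5806 tumour cDC1s places in cluster 5 at a clustering resolution of 0.8. They number 510, or 8.78% of the table, and each was found in the count matrix of its library. The other 5296 cDC1s lie in 11 further clusters and served as the main comparison.

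Proteins bound for the cell surface, for secretion or for endosomes fold in the ER, helped by chaperones such as BiP (Hspa5), by disulfide isomerases and by N-glycosylation. When unfolded protein builds up, the sensors IRE1, ATF6 and PERK start the unfolded protein response (UPR): IRE1 splices the mRNA of the transcription factor XBP1, ATF6 is cut to release a transcription factor, and PERK slows translation and raises ATF4. In cDC1s, cells that cross-present antigen from dead cells to CD8 T cells, the IRE1 and XBP1 branch is known to be active without added stress, and IRE1 can also degrade other mRNAs.

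The study sorted precursors of conventional dendritic cells, cDC1s and cDC2s from MCA205 LA-OVA fibrosarcomas and sequenced them as 3 single-cell libraries of 3′ mRNA counts, 1 per genotype. Mice were WT, sGSN-/- (lacking secreted gelsolin, an actin-binding protein of plasma) or sGSN-/-Clec9a-/- (also lacking DNGR-1, the cDC1 receptor for exposed actin), on a C57BL/6J background. They were 6 to 20 weeks old, had shared cages for over 3 weeks and carried a tumour on each flank, and tumours were taken on day 5. Each library is a pool: 25 male and 12 female WT mice, 15 male and 16 female sGSN-/- mice, and 10 male and 17 female sGSN-/-Clec9a-/- mice. Genotype, pool and sex ratio therefore cannot be told apart, and nothing was tested between genotypes.

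Cluster 5 held 195 of 2316 cDC1s in the WT library (8.42%, 95% interval 7.32 to 9.63), 158 of 1712 in sGSN-/- (9.23%, 7.90 to 10.7) and 157 of 1778 in sGSN-/-Clec9a-/- (8.83%, 7.55 to 10.2). The 3 intervals, which cover counting error alone, overlap. The summed cells gave 2771947, 2350961 and 1922421 unique molecular identifiers (UMIs) in the same order. Per cell, cluster 5 had a median of 13824 UMIs, 3043 genes and 1.73% mitochondrial UMIs, against 13465, 2940 and 1.69% in the other cDC1s. Predicted doublets made up 0.784% of cluster 5 and 1.53% of the rest.

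The label of the double mutant was visible in the counts. Clec9a gave 313 UMIs in cluster 5 of the WT library, 316 in sGSN-/- and 1 in sGSN-/-Clec9a-/-. Gsn mRNA was at 145.0, 175 and 149.8 CPM (counts of UMIs per 1e6 UMIs of the summed cells, the level used throughout). These levels do not check the sGSN label, since 3′ counts per gene do not tell mRNA for secreted gelsolin from other mRNA of Gsn. The libraries shared 26 barcodes between WT and sGSN-/-, 28 between WT and sGSN-/-Clec9a-/- and 27 between the mutants, of which 2, 2 and 3 were cDC1s of the table in both libraries.

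As cDC1s, the cells of cluster 5 expressed all 12 listed cDC1 markers, summed at 4435, 4424 and 4446 CPM (WT, sGSN-/-, sGSN-/-Clec9a-/-) against 5407, 5204 and 5297 in the other cDC1s. Naaa and Irf8 were the most abundant of them in cluster 5, at means of 1133 and 1122 CPM. The 8 cDC2 markers summed to 40.0, 28.5 and 29.1 CPM, with 7 of 8 found, Clec10a on top and Clec4a4 at 0, against a mean of 64.3 in the rest.

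For plasma cells, which also hold a large ER, the immunoglobulin genes Igkc, Jchain, Iglc1 and Iglc2 were at 0 in cluster 5. Ighm was at 123, 109.3 and 142.5 CPM against 100.1, 97.4 and 102 in the other cDC1s (log2 fold change 0.33, adjusted p = 0.0358), which did not pass without WT, without sGSN-/-Clec9a-/- or with thinned cells. Plasmacytoid dendritic cell markers were found for 6 of 8 genes at 320, 354 and 328 CPM (380 in the rest), led by Bst2, with Ly6d and Klk1 at 0.

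Monocyte and macrophage markers, 10 of 10 found and led by Lyz2, were at 749, 595 and 744 CPM against a mean of 1006. NK cell markers, 8 of 8 found and led by Klrk1, were at 167, 209 and 188 CPM against 187. The T cell list (7 of 8 found, led by Trac and Cd5 with 6 UMIs each, Cd8b1 at 0) summed to 2.89, 3.40 and 3.64 CPM, the endothelial list (3 of 5, Pecam1 on top, Emcn and Cldn5 at 0) to 5.77, 5.53 and 2.08. Fibroblast and fibrosarcoma genes (4 of 8, Sparc on top, with Col1a2, Dcn, Lum and Col6a1 at 0) reached 2.16, 2.13 and 0.520 CPM. Of 6 neutrophil markers only Csf3r was found, with 0.520 CPM in sGSN-/-Clec9a-/- and 0 in the other libraries, and none of the 4 erythroid genes was.

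The 3 markers were high in cluster 5 of each library. Creld2, a disulfide-handling ER protein with EGF-like domains (chr15:88819646-88826683, plus strand, GRCm38), stood at 299.8, 322 and 259 CPM in cluster 5 and at 38.7, 40.5 and 39.0 in the other cDC1s of the same libraries. Hspa5, the ER HSP70 chaperone BiP (chr2:34771970-34777547, plus strand), was at 2799.8, 2832 and 2367 CPM against 847, 908 and 793. Pdia6, a protein disulfide isomerase (chr12:17266545-17284770, plus strand, overlapping Atp6v1c2), was at 877, 983 and 839.6 CPM against 252, 275 and 245. For each gene the lowest library of cluster 5 lay above the highest library of the rest, and sGSN-/-Clec9a-/- was the lowest of the 3.

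The corresponding log2 fold changes were 2.90 for Creld2 (SE 0.08, adjusted p = 2.33e-10), 1.66 for Hspa5 (SE 0.07, adjusted p = 8.78e-09) and 1.81 for Pdia6 (SE 0.07, adjusted p = 5.2e-09), each higher in 3 of 3 libraries. Because the authors called the clusters on these same counts, such a p describes how alike the 3 libraries are and does not test whether the cluster exists. The same holds for every adjusted p of cluster 5 given here.

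Over the 12 clusters, Creld2 was highest in cluster 5 (mean 293 CPM), followed by cluster 11 (153) and cluster 9 (68.4). Hspa5 and Pdia6 were higher still in cluster 11, at 3647 and 1326 CPM, than in cluster 5, at 2666 and 899.7. Cluster 11 is small and shallow: 60 cells with a median of 2348 UMIs and 8.07% mitochondrial UMIs. The authors found it rich in mitochondrial transcripts and took its members as likely dying cells. Among the 10 other clusters, Hspa5 reached at most 1552 CPM (cluster 9) and Pdia6 at most 354 (cluster 1).

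**Figure D1:**
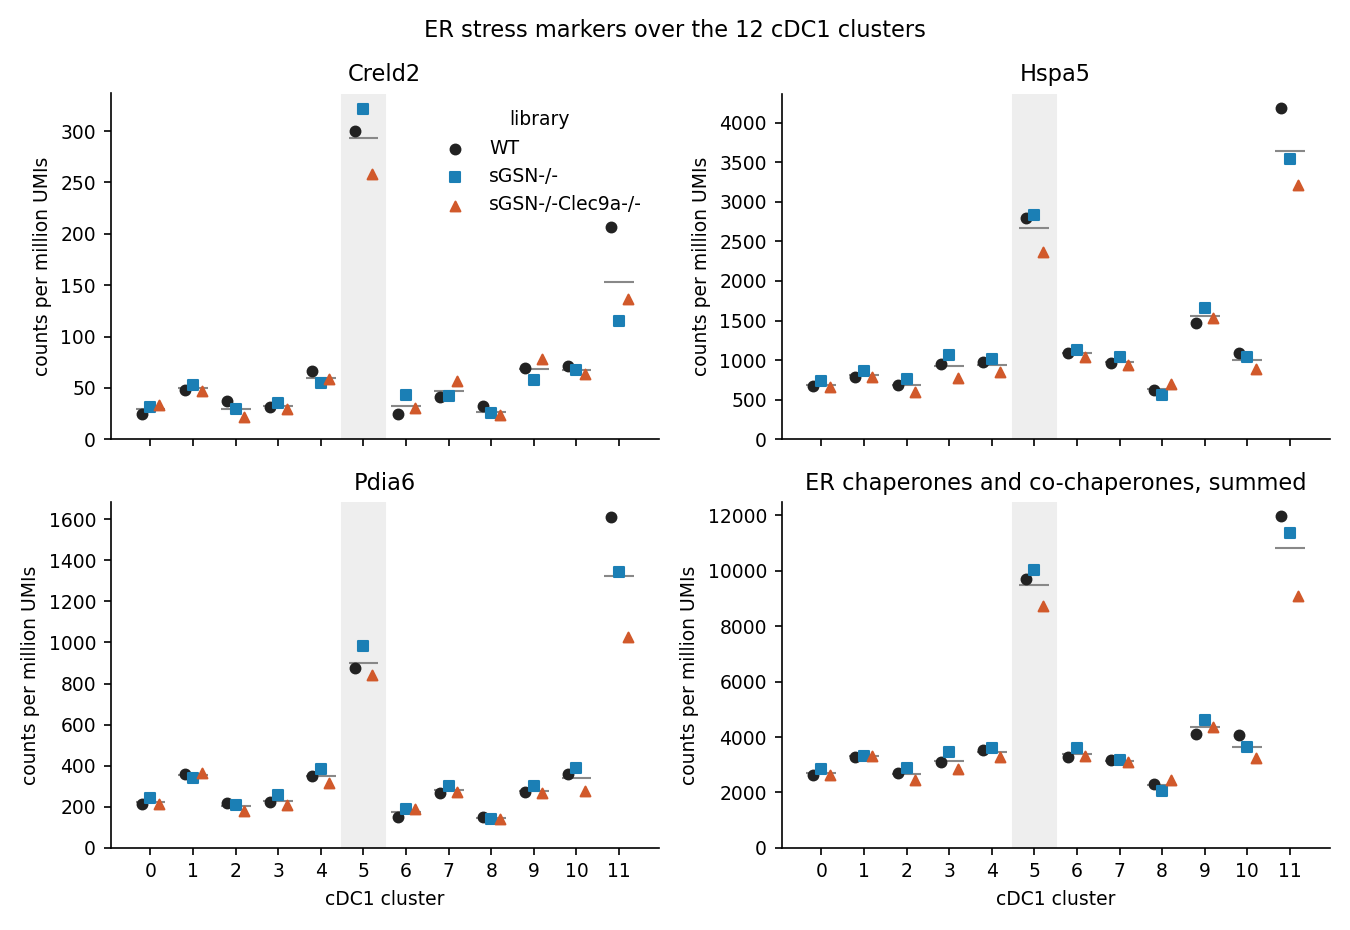
Level of Creld2, Hspa5, Pdia6 and the summed ER chaperones and co-chaperones in each of the 12 cDC1 clusters, in CPM, with 1 symbol per library and a line at the mean of the 3. Cluster 5 is shaded, and cluster 11 holds 60 cells.

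Across the transcriptome, 10817 genes were tested in cluster 5 against the other cDC1s. Of these, 1281 (11.8%) were higher and 1111 (10.3%) lower at an adjusted p under 0.05, and the median log2 fold change was -0.01. Most of the differences were small: 181 genes were higher and 254 lower by at least 1 on the log2 scale among those past the threshold. With the WT library left out the counts were 649 and 388, with sGSN-/- left out 743 and 503, and with cells thinned to 3900 UMIs they were 623 and 447.

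Among genes at 50 CPM or more, the 15 with the largest fold changes were Creld2, Hist1h2bc, Manf, Sdf2l1, Pdia4, Hyou1, Nucb2, Srm, Pdia6, Hsp90b1, Slc35b1, Eif4ebp1, Hspa5, Dnajb11 and Dnajc3. All but Hist1h2bc, Nucb2, Srm and Eif4ebp1 belong to the ER folding and glycosylation lists described next. Nucb2, a calcium-binding protein of the secretory pathway, was at 240.3, 262 and 208 CPM against 63.4, 61.3 and 58.5, a log2 fold change of 1.96. Hist1h2bc, which encodes a core histone of the H2B family (chr13:23684199-23692908, plus strand), was at 112, 124 and 121 CPM against 23.4, 20.6 and 19.8, a log2 fold change of 2.48 (adjusted p = 1.77e-09), and was highest in cluster 5 of all 12 clusters.

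ER chaperones and co-chaperones hold unfolded chains in the ER lumen and help them fold. Their summed level was 9707, 10016 and 8723 CPM in cluster 5 and 3044, 3191 and 2954 in the other cDC1s, a gap of about 3 times in each library. Of 22 members tested (Mzb1 was not), 15 were higher, none was lower, and the list's median log2 fold change was 1.10, beside -0.01 over all genes tested. The remaining 7 did not pass the threshold in either direction.

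Manf, a secreted ER protein that binds BiP (chr9:106838312-106891979, minus strand, overlapping Dcaf1, Rbm15b and 2 other annotated genes), was at 938, 1063 and 910.3 CPM against 185, 204 and 198 (log2 fold change 2.32, adjusted p = 1.25e-09). Sdf2l1, a component of the ER chaperone complex, was at 851, 876 and 847 CPM against 169, 184.5 and 175 (2.29, adjusted p = 5.54e-10). Hyou1, the ER member of the HSP110 family that exchanges nucleotide on BiP, was at 146, 154 and 133 CPM against 35.8, 34.2 and 34.6 (2.05, adjusted p = 1.77e-09). All 3 were separated between cluster 5 and the rest in every library.

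Hsp90b1, the HSP90 of the ER known as GRP94, was at 1930.4, 1898 and 1554 CPM against 567, 554 and 499 (log2 fold change 1.74). The BiP co-chaperones Dnajb11 and Dnajc3 had means of 309 and 422 CPM against 99.8 and 139 (1.64 and 1.61). Dnajb9, another J-domain partner of BiP, was higher by 1.08. Calr, the lectin chaperone of glycoproteins, was at 1059, 1193 and 1154 CPM against 407, 454.5 and 456 (1.38), and its membrane-bound relative Canx was higher by 0.83.

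Disulfide and prolyl isomerases, which form disulfide bonds or turn peptide bonds next to proline, summed to 6032, 6594 and 5821 CPM in cluster 5 and 3296, 3481 and 3237 in the rest. Of 26 members tested, 16 were higher and none lower, with a median log2 fold change of 0.43. Pdia4 was at 225, 255 and 181 CPM against 52.4, 51.3 and 46.7 (log2 fold change 2.14), and Pdia3, which also serves in MHC class I loading, at 1242, 1325 and 1047 CPM against 500.2, 514 and 434 (1.32). Ppib, a prolyl isomerase, was at a mean of 948 CPM against 527 (0.85), and Ifi30, the thiol reductase of lysosomes, at 735 against 599 (0.30, adjusted p = 0.0163), not past the threshold without WT or with thinned cells. Ifi30 was higher than in the resting cells (0.79, adjusted p = 8.22e-07) and lower than in the early cells (-0.41, adjusted p = 0.000781). P4hb and Txndc5, both disulfide isomerases, were higher by 0.83 and 0.78. Of the 2 oxidases that recharge them, Ero1lb was higher by 0.42 (not past the threshold without the sGSN-/- library or with thinned cells), while Ero1l stood at a mean of 18.2 CPM against 17.6 and did not pass.

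ER-associated degradation returns misfolded proteins to the cytosol for the proteasome, and 17 of its 30 tested members were higher and none lower (median log2 fold change 0.49). Herpud1, a membrane scaffold of the retrotranslocation complex (chr8:94386438-94395377, plus strand), was at 484.5, 463 and 471 CPM against 158, 181 and 159.9 (1.51). Selenok and Selenos, selenoproteins of the ER membrane, were at means of 509.7 and 390.5 CPM against 263.5 and 194 (0.96 and 1.01). The ubiquitin ligase Syvn1 and its partner Sel1l were higher by 1.46 and 1.20, and Edem1, a lectin that sends glycoproteins to degradation, by 0.86. Derl3, a Derlin family channel protein, was low in level but far apart between groups. It was at 15.5, 19.6 and 20.3 CPM in cluster 5 and 1.30, 0.754 and 1.59 in the rest (3.91). Derl3 was near the limit of detection in the rest and entered the test through its level in cluster 5. It counts among the 30 genes tested.

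Proteins enter the ER through a channel in its membrane and lose their signal peptide there. Of 24 tested members of the translocation and signal peptide cleavage list, 22 were higher and none lower, with a median log2 fold change of 0.87. Sec61b, a subunit of the translocation channel, was at 1059, 1099 and 1006 CPM against 581, 589 and 573 (0.87). Sec61g, of the same channel, was higher by 0.86, and Ssr4 by 0.38 (adjusted p = 0.00424), the latter not past the threshold without sGSN-/-. Spcs2, of the signal peptidase, was at 519, 587 and 490.0 CPM against 185, 205 and 178 (1.49), and Ssr2, which like Ssr4 belongs to the complex that aids translocation, was higher by 1.32.

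In the N-glycosylation list, 24 of 33 tested genes were higher and 1 lower (median log2 fold change 0.62). Subunits of the oligosaccharyltransferase, which moves the glycan onto the chain, were among the higher ones: Ostc at 326, 370.5 and 325 CPM against 138, 146 and 139 (1.28), Rpn1 by 1.26 and Ddost by 1.15. The small subunits Tmem258, Dad1 and Ost4, the most abundant of the list, were higher by 0.78, 0.65 and 0.38, and Ost4 did not pass without sGSN-/-. Slc35b1, the transporter that brings ATP into the ER, was at 177, 179.9 and 161 CPM against 51.6, 53.8 and 52.7 (1.72). The lower gene was Tusc3, an alternative subunit of the same transferase, at a mean of 23.9 CPM against 32.4 (-0.44, adjusted p = 0.0115), chosen for mention after its value was seen. It did not pass without the WT library or with thinned cells.

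Transport between the ER and the Golgi followed, with 37 of 44 tested genes higher, none lower and a median log2 fold change of 0.63. Tmed9, a cargo receptor of the p24 family, was at 362, 435 and 359 CPM against 156, 177 and 159 (1.24). Lman1, the lectin that exports glycoproteins, was higher by 1.43, the SNARE Bet1 by 1.48, and Sec24d, of the COPII coat, by 1.31. The most abundant members differed less: Tmed10, also of the p24 family, by 0.54, and the small GTPases Arf1 and Arf4 by 0.47 and 0.32, with Arf4 not past the threshold without WT or without sGSN-/-Clec9a-/-. Kdelr2, a receptor that returns escaped ER proteins, was higher by 1.01. Kdelr3 of the same family was near the limit of detection, at a mean of 1.80 CPM against 0.115.

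**Figure D2:**
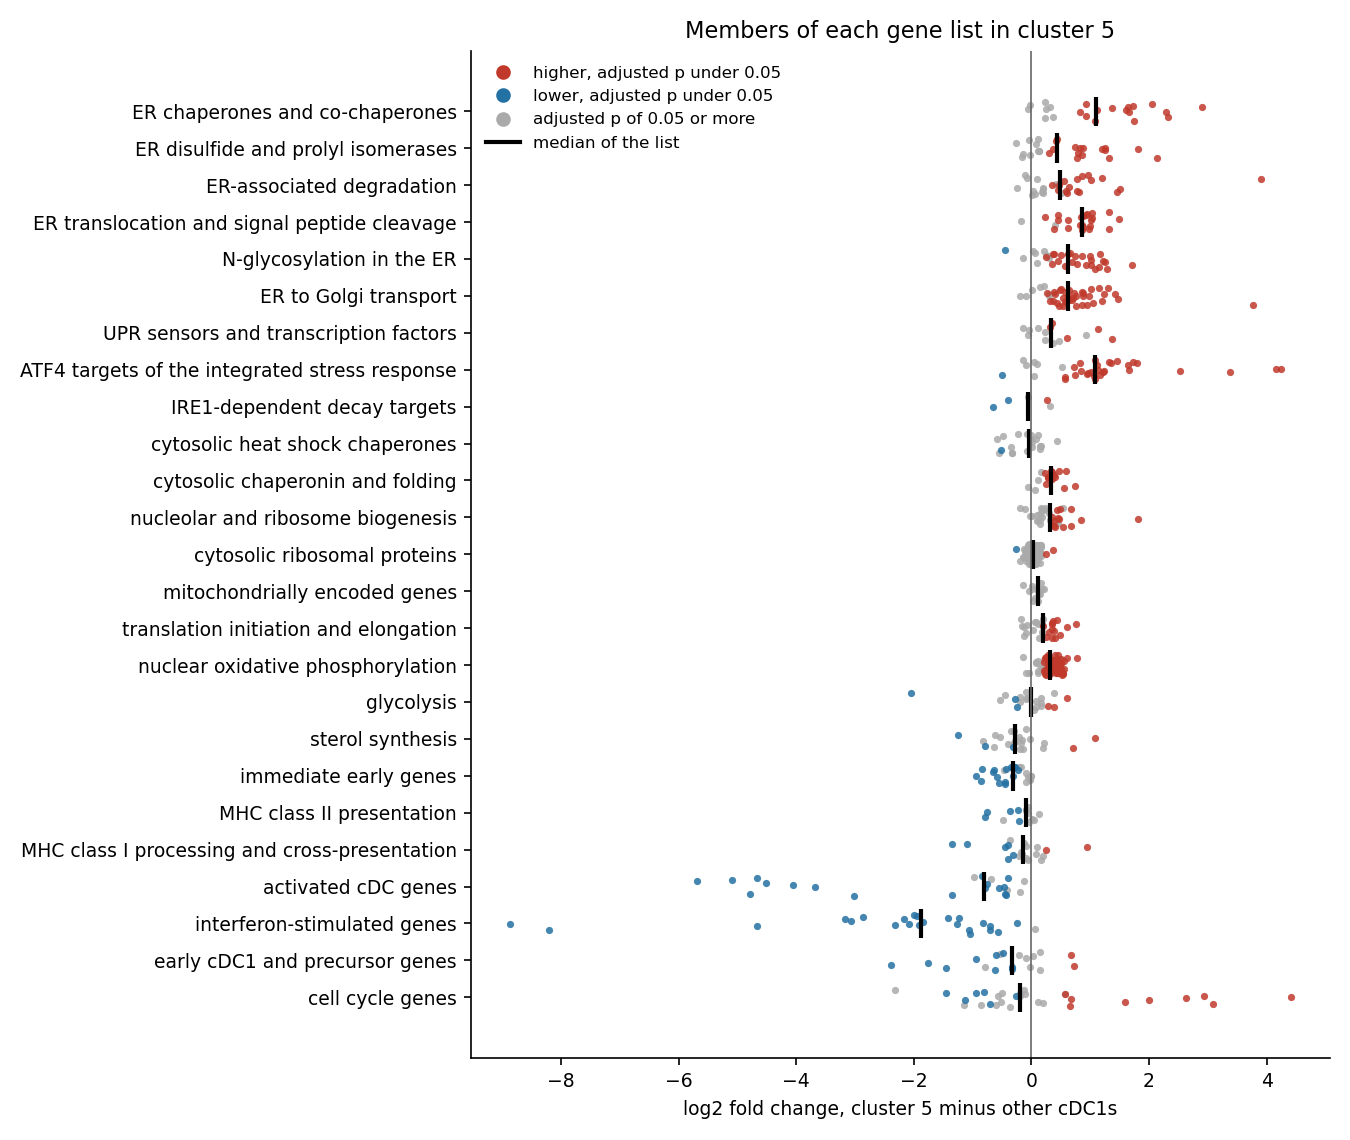
Log2 fold change of cluster 5 against the other cDC1s for each tested member of the 25 gene lists, with a bar at the median of each list. Colour marks members with an adjusted p under 0.05, and 2 interferon-stimulated genes without a UMI in cluster 5 (Ifit3b and Iigp1) have fitted values that are no bound.

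Of 14 tested sensors and transcription factors of the UPR, 5 were higher and none lower, with a median log2 fold change of 0.33. Xbp1, the factor spliced by IRE1 (chr11:5520659-5525893, plus strand), was at 210.3, 213 and 181.5 CPM against 141, 134 and 125 (0.61, adjusted p = 5.69e-05). Creb3l2, a membrane-bound factor of the ATF6 type, was at 16.96, 14.5 and 13.5 CPM against 6.35, 6.27 and 4.91 (1.37, adjusted p = 0.00012). Both were above the rest in all 3 libraries. Without the WT library, 3 of the list passed.

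Ddit3, which encodes the PERK branch factor CHOP (chr10:127290774-127296288, plus strand), was at 102, 85.5 and 99.4 CPM against 41.9, 43.8 and 45.7 (log2 fold change 1.13, adjusted p = 3.05e-06). Its symbol has a further identifier in the annotation, which held no UMI, and the gene overlaps Mars, so its count is less certain. Atf4 itself was at 299.4, 292 and 328 CPM against 250.0, 234 and 242 (0.35, adjusted p = 0.00726). Atf6b was at a mean of 32.1 CPM against 25.8 (0.32, adjusted p = 0.0336). Neither of the last 2 passed without the WT library, and Atf6b also failed to pass when either other library was left out.

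Of the 3 sensors none passed against the other cDC1s. Ern1, which encodes IRE1, was at 7.22, 7.23 and 4.68 CPM against 7.22, 7.78 and 6.65 (adjusted p = 0.692). Atf6 was at 85.5, 81.7 and 79.1 CPM against 75.7, 69.4 and 66.4 (0.23, adjusted p = 0.052), and Eif2ak3, which encodes PERK, at 12.6, 14.5 and 10.4 CPM against 9.36, 8.86 and 9.26 (0.46, adjusted p = 0.0513). Atf6 and Eif2ak3 were higher in 3 of 3 libraries, and with the library as a block the adjusted p was 0.025 for Atf6, 0.0542 for Eif2ak3 and 0.67 for Ern1. Against the early cells Atf6 was at a mean of 82.1 CPM against 48.3 (0.74, adjusted p = 2.26e-05). Against the resting cells Atf6 was level, at 82.1 CPM in both (-0.007, adjusted p = 0.961). Eif2ak3 was at 12.5 CPM against 8.75 in the resting cells (0.51, adjusted p = 0.04). That call was lost without WT, without sGSN-/-, with DESeq2, without the filter on low counts and with thinned cells. Against the early cells Eif2ak3 did not pass (0.19, adjusted p = 0.549).

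The other members varied with the reference or did not pass. Nfe2l2, the factor of the oxidative stress response, did not pass against the other cDC1s, was higher than in the resting cells (0.31, adjusted p = 0.00783) and lower than in the early cells (-0.52, adjusted p = 0.000406). Mbtps1, Mbtps2, Creb3, Creb3l1 and Nfe2l1 did not pass against the other cDC1s, and Bhlha15 and Creb3l4 were too low to be tested. Counts of mRNA do not show splicing of Xbp1, cutting of ATF6 or phosphorylation of the sensors.

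IRE1 can cut mRNAs other than Xbp1, and 5 of the 6 listed targets were tested, of which 1 was higher and 2 were lower (median log2 fold change -0.06). Itgb2, an integrin chain known as such a target in dendritic cells, was lower, at 146, 131 and 140.4 CPM against 228, 214 and 217.5 (log2 fold change -0.65, adjusted p = 4.8e-05). Tapbp, the tapasin of MHC class I loading, was also lower at 158, 157 and 171 CPM against 224, 214 and 209 (-0.40, adjusted p = 0.00212). Ergic3 was higher by 0.26 (adjusted p = 0.0412), and Bloc1s1, a widely used target, was at a mean of 29.8 CPM against 31.2 (-0.06, adjusted p = 0.884). Hgsnat was at 10.2 CPM against 8.35 (0.32, adjusted p = 0.287). Bloc1s1 and Hgsnat were named after their values were seen. Tapbp did not pass without the WT library, and Ergic3 did not when any 1 of the 3 was left out.

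Targets of ATF4, which supply amino acids and charged tRNAs, were higher as a list in cluster 5. Of 35 tested, 28 were higher and 1 lower, with a median log2 fold change of 1.07. The summed level was 3825, 3667 and 3457 CPM against 2868, 2841 and 2651, a smaller gap than that of most members. Of the members that make up much of this sum, 2 were nearly level with the other cDC1s. Atf3 was at a mean of 1403 CPM against 1313 (0.10, adjusted p = 0.349) and Slc3a2, a chain shared by amino acid transporters, at 299 against 290.2 (0.05, adjusted p = 0.703). Both were higher than in the early cells, Atf3 by 0.55 (adjusted p = 6.32e-05) and Slc3a2 by 0.28 (adjusted p = 0.0173). The Slc3a2 call was lost without WT and without sGSN-/-.

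Among the enzymes of the list, Phgdh, which starts serine synthesis (chr3:98313170-98339990, minus strand), was at 41.5, 48.1 and 52.0 CPM against 3.81, 5.52 and 4.40 (log2 fold change 3.37, adjusted p = 1.83e-08). Asns, which makes asparagine, was at 11.9, 5.10 and 7.80 CPM against 0.535, 0.377 and 0.358 (4.25). Outside cluster 5 it was near the limit of detection and entered the test through its level in cluster 5, so no p is given. Mthfd2, of mitochondrial folate metabolism, was at a mean of 109.7 CPM against 47.8 (1.21).

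The tRNA synthetase gene Nars was at 423, 428 and 335 CPM against 230.3, 224 and 206 (log2 fold change 0.85), Sars was higher by 1.09, and the transporter gene Slc7a5 by 1.64. Eif4ebp1, which encodes a repressor of cap-dependent translation, was at 159, 163 and 149 CPM against 51.3, 49.7 and 47.7 (1.67). The pseudokinase gene Trib3 was at a mean of 4.99 CPM against 0.272, and Atf5, another factor of the family, at 11.8 against 2.01. Trib3, like Asns, was near the limit of detection outside cluster 5 and entered the test through its level in cluster 5. Both count among the 35 genes tested.

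The lower ATF4 target was Ppp1r15a, whose product GADD34 restores translation by removing the phosphate from eIF2. It was at 219, 179.5 and 181 CPM in cluster 5 and 271.5, 285 and 263 in the rest (log2 fold change -0.49, adjusted p = 0.000667). Chac1, which breaks down glutathione, was higher by 0.73 (adjusted p = 0.0416), and not past the threshold without the WT or the sGSN-/-Clec9a-/- library. Sesn2 and Ddit4, further stress genes of the list, were at means of 22.7 and 4.70 CPM against 22.1 and 3.40. Neither passed against the other cDC1s. Sesn2 passed against the early cells, a call lost with DESeq2 and when any 1 library was left out. Ddit4 passed against the resting cells, a call lost without WT and without sGSN-/-. The members of this list named here other than Atf3, Slc3a2, Ppp1r15a and Eif4ebp1 were chosen after their values were seen, as were single members of the ER lists other than those with the highest levels.

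Cytosolic heat shock chaperones fold proteins outside the ER. Of 20 tested cytosolic heat shock chaperones, none was higher and 1 was lower: Hspa8, the constitutive HSP70, at 2502, 2106 and 2199 CPM against 3541, 3123 and 3157 (log2 fold change -0.52, adjusted p = 0.000522). DESeq2 also called none higher and 1 lower, and over all 10817 genes 3700 had an unadjusted p under 0.05. The cytosolic HSP90 genes Hsp90ab1 and Hsp90aa1 were at means of 1949 and 736 CPM against 2072 and 936 (adjusted p = 0.558 and 0.0586). Hsp90aa1 was lower than in the resting cells (-0.51) and higher than in the early cells (0.32, adjusted p = 0.0326), the latter lost when any 1 library was left out. Hspa1a, an inducible HSP70 chosen after its value was seen, was at a mean of 666 CPM against 842 (-0.33, adjusted p = 0.492). It passed against the early cells, a call lost with DESeq2 and without sGSN-/-. Against the other resting cells 1 of the 20 was higher and 6 lower (median -0.19), where 16.4% of all genes were higher and 14.7% lower. Against the early cells 4 were higher and none lower (median 0.18), where 8.7% of all genes were higher and 8.64% lower.

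In the cytosol, the chaperonin TRiC and prefoldin fold actin, tubulin and other proteins, and 13 of 17 genes of the cytosolic chaperonin list were higher, none was lower, and their median log2 fold change was 0.33, against 4 higher and none lower when the early cells were the reference. Of its most abundant members, Ran, a GTPase of nuclear transport, and Cct8, a TRiC subunit, were higher by 0.39 and 0.35, and Pfdn5, of prefoldin, was at a mean of 564 CPM against 585 (adjusted p = 0.681). Without the WT library 7 of that list were higher than in the other cDC1s, and 4 heat shock chaperones were lower. With the library as a block 9 heat shock chaperones were lower.

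Genes for building ribosomes and for translation passed in part. In the nucleolar list 14 of 36 were higher (median log2 fold change 0.31), and Srm, which makes spermidine and is in that list, was at 58.4, 75.3 and 52.5 CPM against 18.4, 19.7 and 15.1 (1.81). The list of initiation and elongation factors had 14 of 28 higher (median 0.20), while cytosolic ribosomal proteins had 2 of 76 higher and 1 lower (median 0.03). The most abundant genes of the 3 lists mostly did not pass in the main fit. Npm1 and Ncl, of the nucleolus, were at means of 880.3 and 508 CPM against 829.7 and 450.1 (adjusted p = 0.415 and 0.185). Odc1, which starts polyamine synthesis, was higher by 0.34 (adjusted p = 0.0243) and did not pass without sGSN-/- or without sGSN-/-Clec9a-/-. The factors Eef1a1, Eif1 and Eef1b2 were at 3540.5, 1680.3 and 1676 CPM against 3793, 1563 and 1839, and the ribosomal proteins Rps29, Rps28 and Rps24 at 10612, 6031 and 5089.6 against 11301, 6551 and 5250.4. None of these 6 passed in the main fit, though each differed in the same direction in all 3 libraries. Their values with the library as a block are not given here. Against the early cells the 3 lists had 3, 6 and 0 genes higher and 1, 1 and 3 lower, where 8.7% of all genes were higher and 8.64% lower. The counts against the other cDC1s were smaller in other settings: 6 nucleolar and 8 translation genes without the WT library, 7 and 7 without sGSN-/-, and 3 and 7 with thinned cells. With the library as a block, 28 ribosomal protein genes were higher and 10 lower.

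Of 78 nuclear genes of oxidative phosphorylation, 60 were higher and none lower, with a median log2 fold change of 0.33. Against the early cells 7 were higher and none lower (median 0.08), a share near the 8.7% of all genes higher in that comparison. The most abundant of them were close to level: Atp5e and Cox7c were at means of 1154.5 and 997 CPM against 1077 and 927 and did not pass (adjusted p = 0.303 and 0.379), and Cox6c was higher by 0.22 (adjusted p = 0.0263), which was lost without WT, without sGSN-/-, without the filter on low counts and without clusters 6 and 11. Without the WT library 34 of them passed, without sGSN-/- 36, and with thinned cells 36. The 13 mitochondrially encoded genes of the same chain did not pass in either direction (median 0.11), by edgeR or DESeq2, though 6 were higher with the library as a block. The most abundant, mt-Co1, mt-Atp6 and mt-Co2, were at means of 3583, 3344 and 3163 CPM against 3980.5, 3036 and 3266. Glycolysis had 3 of 20 genes higher and 3 lower (median -0.01), shares near the 11.8% and 10.3% of all genes. Gapdh was higher by 0.60, Ldha was at 640.5 CPM against 624 (adjusted p = 0.681), and Pfkp was lower by -0.25 (adjusted p = 0.041), a call lost when any 1 library was left out, with thinned cells and without clusters 6 and 11. Pfkp was also lower than in the resting cells (-0.52, adjusted p = 0.000116) but higher than in the early cells (0.77, adjusted p = 2.29e-06).

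Genes of antigen presentation varied. For MHC class II, 5 of 14 tested genes were lower and none higher (median log2 fold change -0.09). The 3 most abundant were level: the invariant chain gene Cd74 at a mean of 19993 CPM against 19999 (adjusted p = 0.966), H2-Ab1 at 10588 against 10377 (adjusted p = 0.791) and H2-Eb1 at 8016 against 8579 (adjusted p = 0.463). H2-Aa, another chain of the class II molecule, was at 6645 CPM against 8574 (-0.36). H2-Oa and H2-Ob, which encode the inhibitor of peptide loading, were lower by -0.80 and -0.75 on the log2 scale. For MHC class I and cross-presentation, 6 of 20 were lower and 2 higher (median -0.15), with members from -1.35 to 0.94. Over all genes 10.3% were lower and 11.8% higher, and the share of class I genes higher was near the latter. Psmb8, of the immunoproteasome, was at a mean of 1555 CPM against 1309 (0.26, adjusted p = 0.0498), a call lost when any 1 library was left out, with thinned cells, without doublets and without clusters 6 and 11. H2-D1, a class I heavy chain, and the proteasome activator gene Psme1 were at 1523 and 1203 CPM against 1598 and 1285 and did not pass. Wdfy4, needed for cross-presentation by cDC1s, was at a mean of 317 CPM against 432 (-0.44). Leaving out WT, sGSN-/- or sGSN-/-Clec9a-/- left 2, 2 and 3 class II genes lower, and H2-Aa did not pass without WT or without sGSN-/-. H2-Aa, H2-Oa, H2-Ob and Wdfy4 were chosen after their values were seen.

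Of the 12 cDC1 markers, 5 were lower and none higher in cluster 5 (median log2 fold change -0.32). Xcr1, the chemokine receptor that defines cDC1s, chosen after its value was seen, was at 157, 194 and 171 CPM against 209.5, 226 and 239 (-0.37, adjusted p = 0.0133). Cadm1, an adhesion molecule used to identify cDC1s, was at 37.5, 24.7 and 52.0 CPM against 97.6, 76.5 and 94.6 (-1.25, adjusted p = 0.000447). Immediate early genes had 16 of 26 members lower and none higher (median -0.32). Fos was at a mean of 2720.1 CPM against 2772 (adjusted p = 0.902), and differed by -0.25 from the resting and 0.60 from the early cells, both past the threshold, the former not without WT or without sGSN-/-. Junb and Btg2 were lower by -0.22 and -0.30 (adjusted p = 0.0485 and 0.0215), neither past the threshold without WT, without sGSN-/- or with thinned cells, nor Junb without doublets or without clusters 6 and 11. Against the resting cells 3 were higher and 19 lower, and against the early cells 9 were higher and 6 lower (median 0.05), so their direction depends on the reference. Without the WT library 8 of them were lower than in the other cDC1s, and Xcr1 did not pass. Xcr1 was higher than in the early cells (0.39, adjusted p = 0.0233), a call lost without sGSN-/-.

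Genes of activated dendritic cells and of the interferon response were among the lowest in cluster 5. At 50 CPM or more in the rest, the 8 smallest fold changes were those of Ccr7, Ccl22, Il12b, Ccl5, Cxcl9, Samsn1, Cxcl10 and Fcrla, of which Samsn1 and Fcrla are in neither list. Fcrla, an Fc receptor-like gene, was at a mean of 21.0 CPM against 68.8, and at 93.6 in the other resting cells. Ccr7, the receptor for migration to lymph nodes, was at 1.44, 2.55 and 1.04 CPM against 84.5, 147.9 and 33.1 (log2 fold change -5.68, adjusted p = 0.00038). Il12b, which encodes the p40 chain of IL-12, was at 2.89, 6.81 and 1.56 CPM against 90.1, 137 and 38.2 (-4.52, adjusted p = 0.000252).

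In the activated list 17 of 22 tested genes were lower and none higher (median log2 fold change -0.81), and in the interferon list 23 of 24 were lower and none higher (median -1.87). The most abundant activated genes Cd83, Cd86 and Traf1 were lower by -0.44, -0.42 and -0.83. Of the most abundant interferon genes, Isg15 was lower by -1.23, Ifi27l2a was at a mean of 603 CPM against 582 (adjusted p = 0.657), and Ifi205 was lower by -0.24 (adjusted p = 0.0278), a call lost when any 1 library was left out and with thinned cells. Against the early cells Ifi205 was higher (0.26, adjusted p = 0.027), a call also lost when any 1 library was left out. Ifi27l2a was higher there too, at 603 CPM against 359 (0.72, adjusted p = 3.47e-05). Setting Ifit3b and Iigp1, without a UMI in cluster 5, to a floor of 3 UMIs over the group left the interferon median at -1.87. Both are among the 23 lower genes and entered the test through the other cDC1s alone. The reference bears on these counts, since the activated clusters 7, 8, 9 and 10 are part of the other cDC1s. Against the resting clusters the same lists gave 5 higher and 3 lower of 18, and 4 higher and 6 lower of 19. Over all genes 16.4% were higher and 14.7% lower there, and the share of activated genes lower was near the latter. The chemokine gene Cxcl9 was at -2.16 against the other cDC1s and 1.35 against the resting, but its UMIs came from 13, 14 and 10 cells, with 98 of 166 in WT and 25 of 47 in sGSN-/- from 1 cell each. Without the WT library 10 genes of the activated list were lower than in the other cDC1s.

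Cell cycle genes went in both directions. Of 30 tested, 9 were higher and 6 lower (median log2 fold change -0.20), where 11.8% of all genes were higher and 10.3% lower. Ccnb2, a cyclin of G2 and mitosis, was at 42.9, 49.3 and 29.1 CPM against 2.27, 1.93 and 1.43 (4.41, adjusted p = 8.48e-09). Ube2c, which acts with the ligase that ends mitosis, was at 20.6, 31.5 and 23.4 CPM against 2.37, 3.96 and 2.66 (3.08, adjusted p = 1.14e-06), and Birc5, of the chromosomal passenger complex, at 16.2, 15.3 and 10.4 CPM against 1.81, 3.02 and 2.20 (2.62).

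Cenpf and Stmn1, which act on kinetochores and microtubules, were also higher (2.94 and 1.60), as was Hmgb2, a chromatin protein, at a mean of 449 CPM against 285 (0.66). Among the lower genes, Mcm2 and Mcm3, subunits of the replicative helicase, differed by -1.46 and -1.12, and Pcna, the DNA polymerase clamp, by -0.26 (adjusted p = 0.0365). Top2a, a marker of dividing cells, was at a mean of 4.05 CPM against 5.82 and did not pass (adjusted p = 0.157), nor did Cdk1, Ccna2 or Ccnb1. Tubb5, a tubulin, was at 158 CPM against 182 (adjusted p = 0.0536). All of these except Hmgb2, Pcna and Tubb5 were chosen after their values were seen. The lower calls depended on single libraries: 1 gene of the list was lower without WT and 3 without sGSN-/-, Mcm2 did not pass without WT, and Pcna did not when any 1 library was left out. With thinned cells Mcm2, Mcm3 and Pcna did not pass. Pcna was also lost with DESeq2 and without clusters 6 and 11.

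Ccnb2 UMIs came from 59 cells in WT, 36 in sGSN-/- and 34 in sGSN-/-Clec9a-/-, with at most 8 in 1 cell. Ccnb2 was highest in cluster 5 (40.5 CPM) and next in cluster 4 (5.80). Mki67 was at 13.5 CPM in cluster 5 and 44.3 in cluster 9. It passed the threshold against the other cDC1s as a whole. That call was lost with DESeq2, without TMM factors, without WT, without sGSN-/-Clec9a-/- and with thinned cells. The authors had removed proliferating cells before they clustered the cDC1s, so these levels are of the cells that were left. Whether cells of cluster 5 divide was not tested.

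Against the other resting cDC1s (clusters 0, 2, 3 and 6, which the authors group with cluster 5), 10109 genes were tested, of which 1653 (16.4%) were higher and 1491 (14.7%) lower. Without WT 827 and without sGSN-/- 941 were lower, and with thinned cells 920 were higher and 715 lower. Fold changes were ranked among genes past the threshold and at 50 CPM or more in cluster 5. The largest of these were those of Creld2 at 293 CPM against 30.5 (log2 fold change 3.26), Hist1h2bc at 119 against 19.0 (2.62), Manf at 970.4 against 162 (2.58), Sdf2l1 at 858 against 154 (2.48) and Nucb2 at 237 against 49.2 (2.26). Of 22 ER chaperones 18 were higher and none lower (median 1.06), of 24 translocation genes 23 (median 0.91), and of 35 ATF4 targets 28 were higher and 2 lower (median 1.14). Hspa5 and Pdia6 differed by 1.75 and 2.06.

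Besides the ER lists, cluster 5 differed from the other resting cells in cDC1 markers and in part of the early genes. At 50 CPM or more in the resting cells, the smallest fold changes were those of Fcrla (-2.18), Cadm1 (-1.73), Pianp (-1.56), Pglyrp1 (-1.50) and Fgfr1 (-1.34). Of these, Pianp and Fgfr1 were higher than in the early cells (1.37 and 1.48). Of the 12 cDC1 markers 9 were lower and none higher (median log2 fold change -0.59), and of 17 early and precursor genes 7 were higher and 3 lower. Over all genes 16.4% were higher and 14.7% lower in this comparison, and the share of early genes lower was near the latter. Lgals1, a galectin, and S100a10, of the S100 family, both in the early list, were higher by 1.04 and 0.87. The most abundant early genes Crip1, S100a11 and Vim differed by -0.02, 0.13 and 0.01 and did not pass. Sterol synthesis, with 9 of 23 genes higher and 1 lower (median 0.50), included Mvd, of the mevalonate pathway, at a mean of 21.5 CPM against 5.19 (2.07). Lgals1, S100a10 and Mvd were chosen after their values were seen. Of the most abundant sterol genes, Fdps was higher by 1.49 and Srebf2 lower by -0.44, and Pmvk differed by 0.04 and did not pass. Without the sGSN-/- library 5 sterol genes were higher. Of 78 nuclear genes of oxidative phosphorylation, 68 were higher and 1 lower.

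Against the early cDC1s (clusters 4 and 1), 9191 genes were tested, of which 800 (8.7%) were higher and 794 (8.64%) lower. These counts were 475 and 421 without WT, 461 and 449 without sGSN-/-, and 407 and 365 with thinned cells. Fold changes were ranked as for the resting cells, among genes past the threshold and at 50 CPM or more. The largest of these were those of Creld2 at 293 CPM against 53.3 (log2 fold change 2.43), Ccl7 (2.30), Hist1h2bc at 119 against 25.5 (2.19), Sdf2l1 (1.89) and Manf (1.86). The chemokine gene Ccl7 rested on few cells: its UMIs came from 11 cells in WT, 8 in sGSN-/- and 10 in sGSN-/-Clec9a-/-, and its level was 30.3, 25.1 and 105 CPM. Hspa5 and Pdia6 differed by 1.60 and 1.32. Of 22 ER chaperones 15 were higher and none lower (median 1.02), and of 34 ATF4 targets 28 were higher and none lower (median 0.76), while 17 were higher with thinned cells.

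Against the early cells, and at 50 CPM or more in them, Cd209a (-3.35), Ifitm6 (-3.33), Ifitm1 (-2.63), Idi1 (-2.11) and S100a4 (-2.06) had the smallest fold changes. Ifitm1, an interferon-induced membrane protein also found on precursors, was at a mean of 131.5 CPM in cluster 5 against 806 in the early cells and 46.5 in the other resting cells. Of 19 early and precursor genes 13 were lower and none higher (median log2 fold change -1.004), and of 23 sterol synthesis genes 19 were lower and none higher (median -1.21), among them Fdps by -1.35. The abundant early genes Crip1, S100a11 and Vim did not pass, with log2 fold changes of 0.16, 0.09 and -0.20 (adjusted p = 0.205, 0.452 and 0.118). The cDC1 markers had 4 higher and 1 lower, with Cadm1 at 38.1 CPM against 20.3 (0.86, adjusted p = 0.0251), which did not pass without the WT library or with DESeq2.

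By levels over 2418 genes, cluster 5 was closest to cluster 1. The correlation of log levels was 0.973 and the median absolute log2 difference 0.159, followed by cluster 4 (0.964 and 0.189) and cluster 0 (0.963 and 0.219). Without the ER and ATF4 lists, over 2313 genes, cluster 1 was again closest (0.978 and 0.153). Cluster 11, the other cluster with high Hspa5, was the farthest (0.652 and 0.976). These values describe levels and share the depth of each cluster.

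The ER lists were not highest in cluster 5 for every gene. Of the 22 ER chaperones tested, 7 were highest in cluster 5 of all 12 clusters and 16 when cluster 11 was set aside. For the 24 translocation genes the counts were 13 and 21, and for the 35 ATF4 targets 11 and 23. The chaperone sum was 9482 CPM in cluster 5, 10818 in cluster 11 and between 2272 and 4357 in the 10 others. Srm, Ddit3 and Herpud1 were highest in cluster 5 (62.1, 95.5 and 473 CPM), with Herpud1 at 456 CPM in cluster 8 and 445 in cluster 9. Atf4 was higher in cluster 6 (409 CPM) than in cluster 5 (306), and Xbp1 in cluster 11 (424 CPM) than in cluster 5 (201.5).

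Cell by cell, the ER chaperone and isomerase lists together made up a median of 1.56% of the UMIs of a cluster 5 cell, and 0.581% in the other cDC1s. The 10th and 90th percentiles were 0.922% and 2.19% in cluster 5, against 0.387% and 0.983% in the rest. Medians of cluster 5 were 1.55% in WT, 1.68% in sGSN-/- and 1.40% in sGSN-/-Clec9a-/-, against 0.576%, 0.610% and 0.563% in the rest. Without Hspa5 they were 1.30% and 0.506% over all libraries. Among the other clusters the medians ran from 0.414% (cluster 8) to 0.700% (cluster 1), apart from 1.94% in cluster 11.

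**Figure D3:**
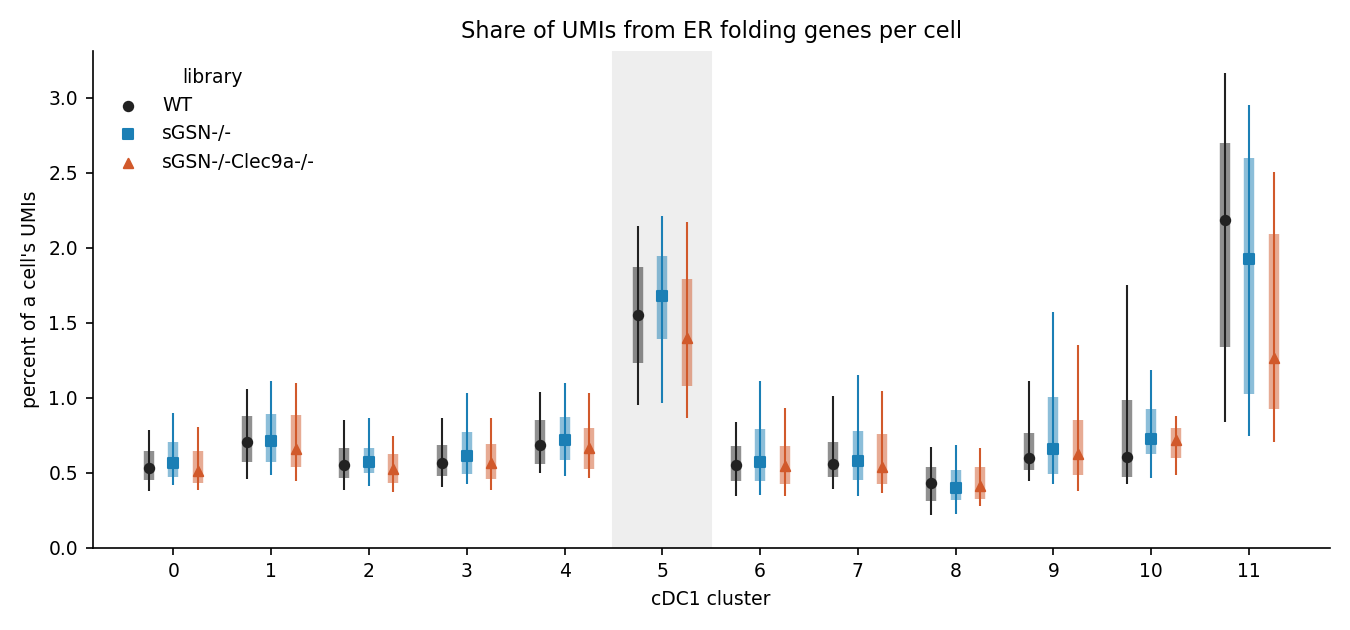
Percent of the UMIs of each cell that come from ER chaperones, co-chaperones and disulfide and prolyl isomerases, by cluster and library. Symbols are medians, thick bars span the 25th to 75th percentile and thin lines the 10th to 90th percentile of cells, which are not replicates.

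The boundary of the cluster was not a sharp step in this share. Of the 5296 other cDC1s, 110 (2.08%) had a share at or above the median of cluster 5, and 33 of those were in cluster 11. At or above the 10th percentile of cluster 5 were 660 (12.5%), and cluster 9 (22.8% of its cells), cluster 1 (21.5%) and cluster 10 (21.1%) had the largest shares outside cluster 11. The correlation of the share with the UMIs of a cell was 0.056 over the 510 cells of cluster 5, and with cells thinned to 3900 UMIs the medians were 1.56% and 0.590%. With the mitochondrial share of a cell, a sign of RNA quality, the correlation was 0.261, 0.013 and 0.066 in cluster 5 of WT, sGSN-/- and sGSN-/-Clec9a-/-, and 0.362, 0.345 and 0.219 in the other cDC1s. The part of RNA quality in the share was not tested.

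Shares of ATF4 targets per cell separated the cluster less. Their median was 0.331% of UMIs in cluster 5, 0.245% in the other cDC1s, and 0.367% in cluster 3. Atf3, at means of 1403 CPM in cluster 5 and 1313 in the other cDC1s, makes up much of this share. Neither the share nor its correlations were computed without Atf3. Within cluster 5, the ER share and the ATF4 share of a cell had a correlation of 0.234 in WT (195 cells), 0.379 in sGSN-/- (158 cells) and 0.407 in sGSN-/-Clec9a-/- (157 cells). In the other cDC1s the values were 0.046, 0.151 and 0.176. Both shares come from the same UMIs of a cell, so these correlations are a description.

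Between genotypes, the levels within cluster 5 were alike for most genes. Among 2613 genes at 50 CPM or more in WT or sGSN-/-, the median absolute log2 ratio was 0.115, with 1 gene at 1 or more and 6 at -1 or less. Between sGSN-/- and sGSN-/-Clec9a-/-, 2557 genes gave a median of 0.139, with 4 and 7 genes. With 1 library each, none of these ratios was tested, and the intervals below cover counting error alone.

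Creld2 was at 299.8 CPM in WT (95% interval 279.8 to 321), 322 in sGSN-/- (299.1 to 345) and 259 in sGSN-/-Clec9a-/- (236 to 282). The intervals of WT and sGSN-/- overlap, and that of sGSN-/-Clec9a-/- overlaps with WT but lies below sGSN-/-. Hspa5 was at 2799.8 (2738 to 2863), 2832 (2764 to 2900.5) and 2367 CPM (2299 to 2437), so its interval in the double mutant lay below both others. In the other cDC1s the double mutant was lowest for Hspa5 too, at 793 CPM against 847 and 908.

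The largest ratios of sGSN-/- to WT were those of Rrad, a small GTPase (51.0 against 25.3 CPM), Plet1, a surface glycoprotein (170.1 against 89.8), Gnb4, a G protein subunit (60.4 against 34.3), and Rgs1, a regulator of G protein signalling (447 against 258). In Rrad, 47 of 120 UMIs of sGSN-/- came from 1 cell. In the other cDC1s sGSN-/- was also above WT for all 4, at 40.9 against 33.6 CPM for Rrad, 93.6 against 62.6 for Plet1, 56.7 against 44.7 for Gnb4 and 564 against 402 for Rgs1. The smallest were those of Olfr655, Cxcl9, Hspa1b and Dnajb1. Olfr655, annotated as an olfactory receptor gene, had 171 UMIs in WT and 2 in sGSN-/-, but those of WT came from 6 cells, with 77 in 1 cell. Cxcl9 had 166 and 47 UMIs, of which 98 in WT came from 1 cell.

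The cytosolic heat shock genes were spread over more cells. Hspa1b was at 387 CPM in WT (364 to 411) and 161 in sGSN-/- (145 to 178), over 119 and 63 cells. In the other cDC1s it was at 523 and 257 CPM, so WT was higher there too. Dnajb1, an HSP40 partner of HSP70, was at 175 CPM (159.7 to 191) and 83.4 (72.1 to 95.9), against 227 and 141 in the other cDC1s. Cells of 1 library share 1 pool and 1 preparation, whose part in these levels was not tested.

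For sGSN-/-Clec9a-/- against sGSN-/-, Clec9a itself had the smallest ratio. Next came Cebpb, a transcription factor (27.6 CPM, 20.7 to 36.1, against 90.2, 78.4 to 103), Ppp1r14b, an inhibitor of a protein phosphatase (75.4, 63.6 to 88.7, against 177, 160.4 to 195), and Jdp2, a bZIP factor (41.6, 33.0 to 51.8, against 94.4, 82.4 to 108). The 3 were lower in the double mutant outside cluster 5 as well: in the other cDC1s Cebpb was at 17.8 against 57.6 CPM, Ppp1r14b at 49.2 against 112 and Jdp2 at 55.2 against 118.5. The highest ratios were those of Ccl7 (105 against 25.1 CPM), Gm26917 (87.9 against 34.9), Cadm1 (52.0 against 24.7) and Gm42418 (14534 against 7122). In the other cDC1s Gm42418 was at 22140.4 against 11610.3 CPM, Cadm1 at 94.6 against 76.5, Ccl7 at 81.0 against 73.2 and Gm26917 at 46.5 against 47.4. In Gm26917 57 of 169 UMIs of the double mutant came from 1 cell. Gm42418 (chr17:39846958-39848788) overlaps AY036118 and an unnamed annotation, and its count is taken as uncertain.

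Promoter sequence, which played no part in the clustering, was read for the genes of cluster 5. RefSeq promoters (GRCm38.p6, 250 bases before to 50 after each start) were searched on both strands for 4 motifs: the ER stress element ERSE, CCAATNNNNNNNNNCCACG; ERSE-II, ATTGGNCCACG; an XBP1 core, TGACGTGG; and an ATF4 element, TGATGNAAT. ERSE and ERSE-II share CCACG and, on opposite strands, the CCAAT box. Of all 32851 promoters in the table, 39 (0.119%) held ERSE, 12 (0.0365%) ERSE-II, 222 (0.676%) the XBP1 core and 317 (0.965%) the ATF4 element.

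Of the 10817 genes tested, 8501 had a promoter in the table, and 23 of these (0.271%) held ERSE or ERSE-II. Of the 181 genes higher in cluster 5 by a log2 fold change of at least 1, 136 had a promoter, and 12 of them (8.82%) held 1 of the 2 elements. Of the 254 genes lower by as much, 196 had a promoter and none held any of the 4 motifs. Of the ER chaperone genes 18 had a promoter, and 6 of these held ERSE. Of the ER to Golgi transport genes 36 had a promoter, of which 7 held the XBP1 core (19.4%) and none any other of the 4 motifs. Of the ATF4 targets 27 had a promoter, and 4 of these held the ATF4 element (14.8%). None of the 4 motifs was found for the 17 genes of ER translocation and signal peptide cleavage or the 16 of cytosolic heat shock chaperones that had a promoter. These shares are of genes, which can have more than 1 promoter. Of the 8501 tested genes with a promoter, 0.165% held ERSE, 1.09% the XBP1 core and 0.494% the ATF4 element.

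Of the 15 genes with the largest fold changes, 10 were in the table and 6 held an element: Creld2, Dnajc3, Hsp90b1, Hspa5 and Pdia6 ERSE, and Dnajb11 ERSE-II. Nucb2, Pdia4, Sdf2l1 and Slc35b1 held neither in this window, nor did Xbp1. Eif4ebp1, Hist1h2bc, Hyou1, Manf and Srm had no entry. Stretches around the element are given for the 3 markers and for Herpud1, which held ERSE-II, as the genes whose levels define the cluster and as 1 example of each element. Each is written from 5′ to 3′ on the strand of its gene, from RefSeq and the build GRCm38.p6, all 4 on the plus strand and upstream of the start that RefSeq gives, at chr15:88819500-88819558 for Creld2, chr2:34772005-34772063 for Hspa5, chr12:17266471-17266529 for Pdia6 and chr8:94386357-94386407 for Herpud1. For Hspa5 the annotation of the count matrices starts earlier, so its stretch lies inside the gene as placed above. Capitals mark the fixed letters of the element, which in Creld2 lies on the opposite strand.
Creld2: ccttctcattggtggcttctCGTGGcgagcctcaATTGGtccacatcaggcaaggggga
Hspa5: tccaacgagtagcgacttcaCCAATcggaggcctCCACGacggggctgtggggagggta
Pdia6: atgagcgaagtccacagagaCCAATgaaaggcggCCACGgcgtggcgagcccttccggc
Herpud1: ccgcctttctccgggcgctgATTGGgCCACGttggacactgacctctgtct
A match describes letters in a window and not binding of a factor, and protein ends with ER retention signals were not analysed here.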

How the data were processed

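The authors deposited UMI counts per gene and barcode for 3 libraries, made with Cell Ranger 6.0.1 per the matrix headers on the mm10 (GRCm38) reference, and a table of 5806 cDC1s with their clusters. Per the submitters' notes the authors used Seurat, and the clusters were called on integrated data. The libraries held 176578136 UMIs in 12763 barcodes (WT), 109270958 in 8173 (sGSN-/-) and 113411930 in 9273 (sGSN-/-Clec9a-/-). UMI totals of the table equalled those of the matrix in 4559 cells and differed by at most 34 in 1247. Counts of cluster 5 and of each reference were summed per library and compared with edgeR 4.0.16 in R 4.3.3 by its quasi-likelihood F-test, after filterByExpr and with TMM factors, and p was adjusted by Benjamini-Hochberg over all genes tested, at 0.05. CPM do not use TMM factors. Alternatives were DESeq2 1.42.0, no TMM factors, no filter, the library as a block, each library left out, cells thinned to 3900 UMIs, doublets left out, and clusters 6 and 11 left out. Doublets were kept in the main counts and were the 6% highest Scrublet scores of each library (scanpy 1.11.5, Python 3.11.15). Intervals are exact (scipy 1.17.1).

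The sums of 1 library come from the same pool of mice, which pairs them. Correlations of their deviations were 0.186, 0.172 and 0.169 for WT, sGSN-/- and sGSN-/-Clec9a-/- against the other cDC1s, 0.196, 0.165 and 0.199 against the other resting and 0.166, 0.125 and 0.186 against the early cDC1s.

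Named were Creld2, Hspa5 and Pdia6, the 15 largest and 8 smallest fold changes against the other cDC1s and the 5 largest and 5 smallest against each further reference (past the threshold, at 50 CPM or more where higher), all UPR sensors and transcription factors, the 3 most abundant members of each other list, the 4 largest and 4 smallest genotype ratios, and Clec9a and Gsn. Any gene outside this rule was named after its value was seen, except markers of other cell types, and those with a fold change in the text went through the same alternatives. Members and lists were chosen with earlier results of these data known. Mx1 is not in the matrices and was not analysed here. The summed marker list of B and plasma cells is not reported here.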

Additional observations from a re-analysis of the deposited data

Results flagged for a closer look

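For 5 genes at 50 CPM or more, cluster 5 lay above the other cDC1s in 1 library and below them in another by more than its counting error. These differences between libraries were not tested. As log2 ratios of cluster 5 to the other cDC1s in WT, sGSN-/- and sGSN-/-Clec9a-/-, Ccl7 was at -1.68, -1.53 and 0.37, Gm26917 at 0.32, -0.44 and 0.91, and Rrad at -0.41, 0.32 and -0.71. Cd74, the invariant chain of MHC class II, was at -0.0131, -0.0211 and 0.0329, and Vim, an intermediate filament gene, at -0.0478, 0.0527 and -0.0878, both small beside high counts. In Rrad, 47 of 120 UMIs of sGSN-/- came from 1 cell.

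Some barcodes outside the cDC1 table, which no comparison used, reached the ER share of cluster 5. Among barcodes with at least 200 genes, 159 of 10431 in WT (1.52%), 69 of 6448 in sGSN-/- (1.07%) and 145 of 7470 in sGSN-/-Clec9a-/- (1.94%) had a share of ER chaperone and isomerase UMIs at or above the median of cluster 5 in their library. Of the other cDC1s, 36 (1.70%), 39 (2.51%) and 42 (2.59%) lay at or above the same medians, of which 12, 16 and 5 were in cluster 11. For the barcodes outside the table the 95% intervals, for counting error alone, were 1.30 to 1.78%, 0.834 to 1.35% and 1.64 to 2.28%. The interval of WT holds the 1.70% of its other cDC1s. Over all such barcodes outside the table the median shares were 0.664%, 0.623% and 0.620%. Their cell types were not analysed here, and the difference between libraries was not tested.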

How the results depend on the processing

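Leaving out 1 library at a time gave 649 to 990 higher and 388 to 886 lower genes for cluster 5 against the other cDC1s (1281 and 1111 with all 3), with the lowest counts without WT. Against the other resting cDC1s the ranges were 1112 to 1355 higher and 827 to 1187 lower (1653 and 1491), and against the early cDC1s 461 to 671 and 421 to 680 (800 and 794). Fewer libraries leave fewer residual degrees of freedom. Thinning cells to 3900 UMIs gave 623 higher and 447 lower, 920 and 715, and 407 and 365 in the 3 comparisons, with 9099, 7934 and 6785 genes tested on fewer UMIs.

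With the library as a block, for the pairing of the sums, the counts were 1568 and 1491, 1900 and 1756, and 1040 and 1060, none over 1.5 times from the main count. With DESeq2 they were 1256 and 951, 1431 and 1092, and 573 and 544. Without the filter on low counts the median log2 fold change was -0.19, -0.15 and -0.06.

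No gene in the text changed direction with a value past the threshold. Against the other cDC1s, 131 named genes under 10 alternatives gave 1307 values, of which 1181 kept direction and side of the threshold, 66 no longer passed and 60 passed anew. Against the resting cells these were 1047, 57 and 52 of 1156, and against the early cells 1062, 44 and 49 of 1155. The library as a block alone gave 27, 22 and 25 of the values that passed anew, in the same order. No named gene stopped passing with it. The genes named after their values were seen gave 537, 21 and 4 of 562 against the other cDC1s, 461, 10 and 8 of 479 against the resting and 446, 17 and 6 of 469 against the early cells. Atf4 did not pass without the WT library, and Atf6b did not with DESeq2, without the filter, with thinned cells or with any 1 library left out. With the block, 28 ribosomal protein genes and 6 mitochondrially encoded genes were higher, against 2 and none. The causes of these shifts were not tested.

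The median ER share of cluster 5 cells moved from 1.56% to 1.30% without Hspa5, and that of the others from 0.581% to 0.506%, since 1 gene was taken out of the sum.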
